A study of Homo sapiens with 8 samples.

Results

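Lysosome and autophagy genes were followed as 1 module of 32 genes in an array study of HCT116, an established human colon carcinoma line. The genes were matched by symbol to the array's probes, and all 32 had at least 1 probe. A gene was tested where a probe lay above background on at least 2 arrays, which held for 31 of the 32, within 16348 tested features of which 12250 were named genes. The exception was TFEB, whose probe was above background on 1 array. The module holds 21 genes of the lysosome and 11 genes of autophagy, TFEB included.

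The study had 8 Illumina HumanHT-12 v3 arrays in 4 groups of 2. Cells were transfected with a non-targeting control siRNA or with one that targets TAF3, which belongs to TFIID, the general factor that binds core promoters. After 48 hours each was left untreated or received doxorubicin, a topoisomerase poison that breaks DNA, at 0.5 µM for 24 hours. The groups were thus control siRNA untreated, control siRNA with doxorubicin, TAF3 siRNA untreated and TAF3 siRNA with doxorubicin, and all 4 had been transfected. The labels do not say that replicates came from separate cultures, so the spread behind each p-value may be technical. Untreated arrays are numbered as replicates 1 and 3, and doxorubicin arrays as 2 and 4. Anything that goes with these numbers cannot be told apart from doxorubicin.

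The lysosome is the acidic compartment in which hydrolases break down proteins, glycans, lipids and glycogen, and a proton pump, channels and transporters in its membrane keep it acidic and export the products. In autophagy a double membrane closes around cytoplasm or damaged organelles and fuses with the lysosome. The ULK1 kinase starts the process, a conjugation system attaches ATG8 proteins to lipid, and cargo receptors bind to these. TFEB is a transcription factor that activates many lysosomal and autophagy genes by binding an element whose centre is the palindrome CACGTG. Several p53 target genes, induced by DNA damage, also act on autophagy.

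Promoters of the module are shown because TFIID acts there and because this palindrome was the feature looked for. RefSeq promoter windows of GRCh38.p14, from 250 bases before to 50 bases after the transcription start, were matched for 27 of the 32 genes, as 33 windows. CACGTG lay in windows of 6 genes (CTSA, CTSD, GAA, LAMP1, MCOLN1 and NEU1), which is 18.2% of the module's windows. Among all 35116 windows in the table the share was 7.26%. The longer TCACGTG, searched on both strands and overlapping the first motif, was found in 18.2% of the module's windows and 3.71% of all windows. TATAAA, searched on both strands, was in 3.03% of the module's windows (ATG5 alone) and 11.5% of all windows. The 6 promoters with the palindrome are printed from 200 bases before to 10 bases after the start, in the direction of transcription, with CACGTG in capitals. The stretches are chr20:45891135-45891344 (plus strand), chr11:1763918-1764127 (minus strand), chr17:80101381-80101590 (plus strand), chr13:113297039-113297248 (plus strand), chr19:7522424-7522633 (plus strand) and chr6:31862812-31863021 (minus strand).
CTSA: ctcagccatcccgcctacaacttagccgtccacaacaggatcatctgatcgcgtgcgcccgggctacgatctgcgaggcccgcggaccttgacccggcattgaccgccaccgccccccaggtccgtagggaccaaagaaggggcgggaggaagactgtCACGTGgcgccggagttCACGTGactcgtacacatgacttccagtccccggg
CTSD: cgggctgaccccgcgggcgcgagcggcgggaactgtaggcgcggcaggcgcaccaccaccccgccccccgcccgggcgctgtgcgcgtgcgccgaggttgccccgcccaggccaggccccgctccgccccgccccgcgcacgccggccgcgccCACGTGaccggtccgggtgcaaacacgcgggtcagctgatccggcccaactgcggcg
GAA: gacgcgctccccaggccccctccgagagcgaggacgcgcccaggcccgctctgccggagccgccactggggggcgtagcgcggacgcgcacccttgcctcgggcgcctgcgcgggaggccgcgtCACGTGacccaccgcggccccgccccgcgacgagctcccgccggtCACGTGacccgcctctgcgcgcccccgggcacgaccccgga
LAMP1: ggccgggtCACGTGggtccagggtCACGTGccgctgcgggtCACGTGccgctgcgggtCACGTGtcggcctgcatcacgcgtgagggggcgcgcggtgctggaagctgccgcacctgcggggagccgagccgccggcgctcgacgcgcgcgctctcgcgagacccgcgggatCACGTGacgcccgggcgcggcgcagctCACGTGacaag
MCOLN1: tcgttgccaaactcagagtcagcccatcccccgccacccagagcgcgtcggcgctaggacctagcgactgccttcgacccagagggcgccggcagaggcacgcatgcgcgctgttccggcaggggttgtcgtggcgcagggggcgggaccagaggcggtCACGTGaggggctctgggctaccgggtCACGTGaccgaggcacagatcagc
NEU1: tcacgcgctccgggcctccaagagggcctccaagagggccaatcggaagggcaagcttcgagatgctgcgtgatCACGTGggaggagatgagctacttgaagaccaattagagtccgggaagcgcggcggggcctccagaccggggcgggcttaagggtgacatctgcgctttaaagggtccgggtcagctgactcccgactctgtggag

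LAMP1 carried 6 copies, the last of them across the start itself, from -1 to 5. CTSA, GAA and MCOLN1 carried 2 each. Single copies stood from -47 to -42 in CTSD and from -126 to -121 in NEU1. A match of letters is not evidence of binding.

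TAF3 was measured first, as the gene the siRNA targets. Of its 2 probes, one was below background on all 8 arrays. The other passed background on the arrays of control siRNA with doxorubicin alone, at 89.3 and 101.0, and ran from 62.7 to 81.4 elsewhere. The arrays therefore do not show whether TAF3 was depleted, and effects are given as those of the siRNA treatment. CDKN1A, the p53 target p21, rose with doxorubicin in both siRNAs, by 2.28 ± 0.21 and 2.23 ± 0.21 on the log2 scale. Of 10 colon epithelial markers 6 (EPCAM, KRT8, KRT18, KRT19, CDH1 and CDX2) were above background on all arrays while CDX1, LGALS4 and CEACAM5 were on none. Of 5 leukocyte markers with a probe, PTPRC and CD3E were above background on no array, CD14 on 5, LYZ on 6 and AIF1 on 4. Of 6 fibroblast markers 4 were above background on none, COL1A1 on all 8 and PDGFRB on 3, and of 4 endothelial markers 2 on none, PECAM1 on all 8 and VWF on 4. CD14 and PDGFRB moved with the groups. CD14 read 151 and 124 on the control siRNA doxorubicin arrays and 74.5 to 105 elsewhere, and rose with doxorubicin in control siRNA cells (0.61 ± 0.18, limma adjusted p = 0.0477). PDGFRB read 145 and 137 on those arrays and 73.1 to 92.5 elsewhere. It was called higher with doxorubicin in control siRNA cells (0.85 ± 0.15) and lower with TAF3 siRNA under doxorubicin (-0.66 ± 0.15). Any part of these markers in the results was not tested. Between 17428 and 19533 of 48803 probes were above background on an array.

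Signals below are the deposited linear values of the brightest probe of a gene. Changes are differences of normalised log2 signals, written ± the standard error of a limma fit to all 8 arrays, with 2 arrays per group. A gene was called where its Benjamini-Hochberg adjusted p over the 16348 features was under 0.05. The word called is used only in that sense. In total 15 of the 31 tested genes were called in at least 1 of 5 comparisons and 16 in none. The same count was not made over all features, so it does not set the module apart. Shares of all features are given for each comparison below. RNA was taken from whole cultures, so a change in all cells and a change in some of them cannot be told apart.

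Doxorubicin with control siRNA raised 5 genes of the module, CTSB, GAA, PSAP, ULK1 and MAP1LC3B, and lowered 1, ASAH1. Of all features 17.1% were called in this comparison, 9.08% higher and 8% lower, against 6 of 31 here. The median change of the 31 genes was 0.43, compared with -0.02 over all features, and 25 of the 31 values were above 0. The medians of the 7 proteases and 6 glycosidases were 0.58 and 0.46.

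PSAP encodes prosaposin, the precursor of the saposins that help enzymes reach membrane lipids. Its signals were 7107 and 8199 on the untreated control siRNA arrays and 14611 and 14208 with doxorubicin. Both doxorubicin arrays lay far above both untreated arrays, and the change was 0.93 ± 0.15 (limma adjusted p = 0.00587). CTSB, the cysteine protease cathepsin B, had signals of 318 and 530.5 untreated and 976 and 930.4 with doxorubicin. The untreated pair was spread widely but did not reach the treated pair, and the change was 1.12 ± 0.21 (limma adjusted p = 0.0101). GAA, the acid alpha-glucosidase that degrades glycogen, went from 367 and 303 to 1055 and 931. Its change of 1.46 ± 0.41 was the highest of the module in this comparison, and its adjusted p of 0.0419 lay close to the threshold.

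ULK1, the kinase that starts autophagy, gave 1077 and 936 without doxorubicin and 2707 and 2311 with it. The pairs did not overlap and differed by 1.25 ± 0.25 (limma adjusted p = 0.0124). MAP1LC3B, an ATG8 protein that marks autophagosomes, gave 1525 and 1514 untreated and 3049.5 and 2228 treated. The treated arrays differed from each other by more than the untreated ones, and the change was 0.71 ± 0.20 (limma adjusted p = 0.0428). ASAH1, the acid ceramidase, ran the other way, from 243 and 209 to 136 and 142. Both treated values lay below both untreated ones (change -0.79 ± 0.19, limma adjusted p = 0.0244).

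Among the 25 genes not called in control siRNA cells, values ran from -0.67 ± 0.24 for ATG5 to 1.08 ± 0.42 for MCOLN1, the lysosomal cation channel. NEU1, a sialidase, stood at 0.93 ± 0.30 (limma adjusted p = 0.0671), and SQSTM1, the cargo receptor p62, at 0.87 ± 0.44 (limma adjusted p = 0.211). CTSB, PSAP and ULK1 were called under all 10 other settings of the analysis, and GAA, ASAH1 and MAP1LC3B under 6, 8 and 7 of them. All these calls were lost without control siRNA doxorubicin replicate 2, and all but that of PSAP without replicate 4 of that group. Those of GAA, ASAH1 and MAP1LC3B were lost without control siRNA untreated replicate 1. Without control siRNA untreated replicate 3 these calls and that of ULK1 were lost, while LAMP1 was added as higher and WIPI1 as lower. Without either untreated TAF3 siRNA array, more genes were called. In each of these fits, which leave 1 array in a group, calls over all features fell or rose in the same direction.

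**Figure D1:**
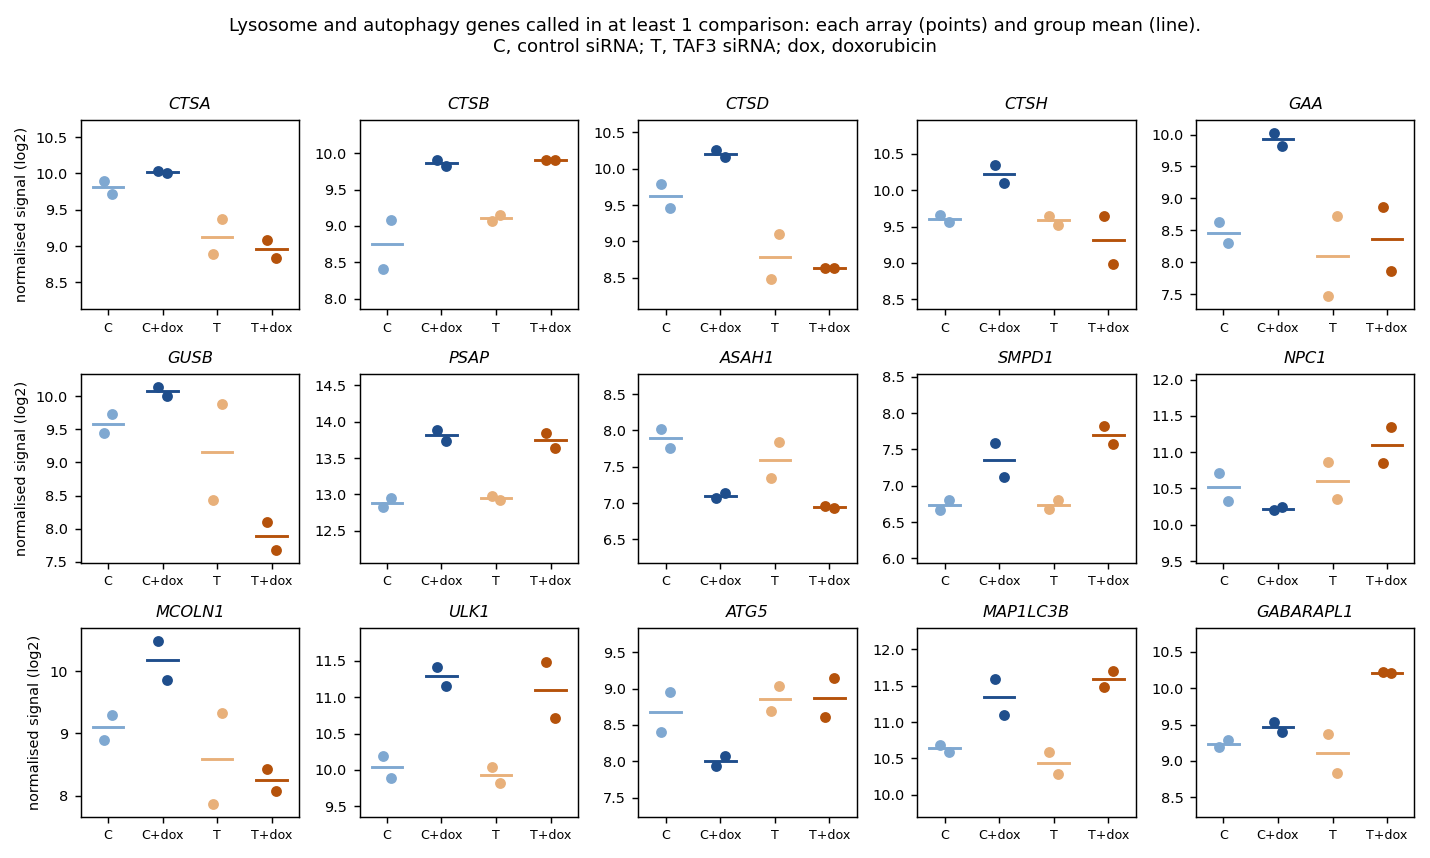
Normalised log2 signal (vertical axis of each panel) of the 15 genes called in at least 1 comparison, on each of the 8 arrays (points) with the group mean (line), for control siRNA (C) and TAF3 siRNA (T) without and with doxorubicin (dox). CTSD, GUSB and MCOLN1 are high on the control siRNA doxorubicin arrays and low on both TAF3 siRNA doxorubicin arrays, while PSAP and ULK1 are high on the doxorubicin arrays of either siRNA.

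With doxorubicin in TAF3 siRNA cells 5 genes were called higher, PSAP, SMPD1, ULK1, MAP1LC3B and GABARAPL1, and 0 lower. Of all features 4.65% were called, 2.07% higher and 2.58% lower, against 5 of 31 here. The median was 0.25, compared with 0.01 over all features, and it was 0.10 on the log2 deposited signals and 0.09 with median centring. Of the called genes 3 (PSAP, ULK1 and MAP1LC3B) were also called with control siRNA. CTSB and GAA, raised with control siRNA, were not called here, at 0.80 ± 0.21 (limma adjusted p = 0.0706) and 0.27 ± 0.41. For CTSB this depended on the probe. Its second probe rose by 0.93 ± 0.19 (limma adjusted p over probes = 0.0291), and the mean of its probes was called (0.86 ± 0.20, limma adjusted p = 0.043). The comparisons with either siRNA use different arrays, though a single fit supplies the error of both.

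For PSAP the TAF3 siRNA arrays gave 7905 and 8679 untreated and 13869 and 11786 with doxorubicin, a change of 0.80 ± 0.15 (limma adjusted p = 0.0251). ULK1 gave 1032 and 1034 untreated and 2755 and 1537 with doxorubicin, a change of 1.17 ± 0.25 (limma adjusted p = 0.0378). Every treated value of both genes exceeded every untreated one, and the treated ULK1 arrays stood far apart. MAP1LC3B gave 1513 and 1428 untreated and 2737 and 3043 treated, with both treated arrays near each other (1.16 ± 0.20, limma adjusted p = 0.0186).

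GABARAPL1, another ATG8 protein, gave 630.0 and 507 without doxorubicin and 1198 and 1097 with it. Its treated TAF3 siRNA arrays were the highest of all 8, and the change was 1.11 ± 0.19 (limma adjusted p = 0.0179). With control siRNA the same gene stood at 541 and 606 untreated and 753 and 698 treated (0.23 ± 0.19, limma adjusted p = 0.47). SMPD1, the acid sphingomyelinase, was dim, at 97.2 and 113 untreated and 227 and 175 treated. The pairs did not overlap (0.95 ± 0.19, limma adjusted p = 0.0284), but a second probe was not called. The largest positive value in this comparison belonged to SQSTM1, at 7825 and 2897 untreated and 12744 and 11354 treated. The untreated pair was so far apart that the change of 1.54 ± 0.44 was not called (limma adjusted p = 0.0821). The lowest value was that of GUSB, at -1.26 ± 0.39 (limma adjusted p = 0.102).

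These calls rest on few arrays. All were lost without TAF3 siRNA untreated replicate 3 or without TAF3 siRNA doxorubicin replicate 2, where most calls over all features were lost too. Without TAF3 siRNA untreated replicate 1, calls rose in the module and over all features. SQSTM1 (2.38 ± 0.22), GUSB (-1.98 ± 0.23) and ASAH1 (-0.90 ± 0.19) were then added. Neither control siRNA doxorubicin array is part of this comparison, but each enters the normalisation and the fit's error. Leaving out either lost calls in the module and over all features. Leaving out TAF3 siRNA doxorubicin replicate 4 lost calls in the module but not over all features.

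**Figure D2:**
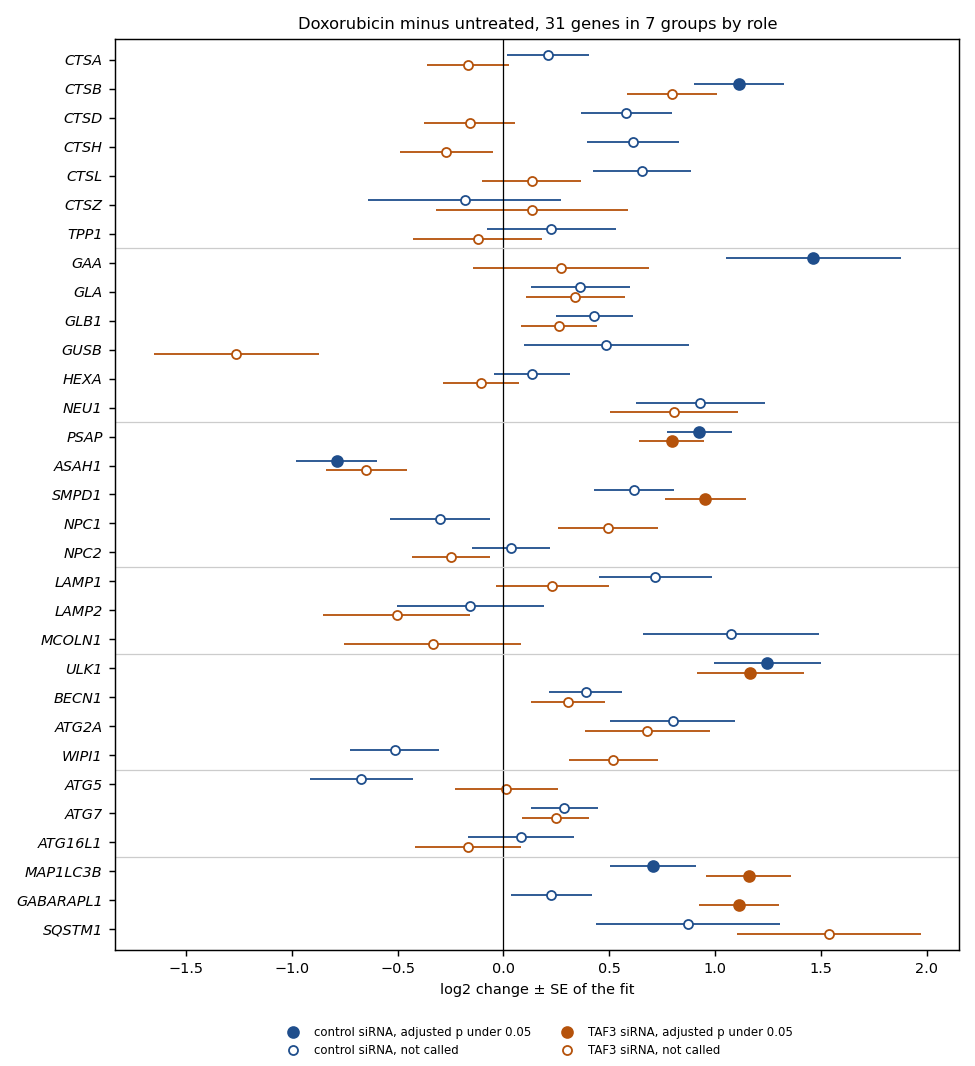
Log2 change with doxorubicin (horizontal axis, ± SE of the fit) of the 31 tested genes (vertical axis, ordered by role) for control siRNA and TAF3 siRNA. Filled points are called, namely 6 genes with control siRNA and 5 with TAF3 siRNA, and GUSB at -1.26 ± 0.39 with TAF3 siRNA is the lowest value.

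In untreated cells TAF3 siRNA gave 0 calls among the 31 genes and 0 among all features (0% called, limma). However, 5 genes of the module and 1973 features had an unadjusted p under 0.05. The module's median was -0.15, compared with 0.01 over all features, and it was -0.05 on the log2 deposited signals. Its 5 genes with an unadjusted p under 0.05 were CTSD (-0.84 ± 0.22), CTSA (-0.68 ± 0.19), WIPI1 (-0.59 ± 0.21), ATG16L1 (-0.62 ± 0.25) and LAMP2 (0.81 ± 0.35). The median standard deviation of the module's genes within the untreated TAF3 siRNA pair was 0.24 log2. It was 0.23 for untreated control siRNA, 0.22 for TAF3 siRNA with doxorubicin and 0.11 for control siRNA with doxorubicin. Over all features the medians were lower, at 0.151, 0.127, 0.145 and 0.101 in the same order, least so for control siRNA with doxorubicin. In the untreated TAF3 siRNA pair some genes disagreed widely. GAA read 165 and 468, GUSB 326 and 1073, MCOLN1 218 and 723, and SQSTM1 7825 and 2897 on replicates 1 and 3. Replicate 1 was thus the low one for these lysosomal genes and the high one for SQSTM1. Averaged over the 21 lysosomal genes, as log2 deviation from each gene's mean over the arrays, replicate 1 stood at -0.36 and replicate 3 at -0.01. Without replicate 3, calls appeared over all features and in the module, where CTSD (-1.14 ± 0.20) and GUSB (-1.15 ± 0.23) were lower. Under all 10 other settings of the analysis the module's count stayed at 0.

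Under doxorubicin, cells with TAF3 siRNA had lower RNA than cells with control siRNA for 6 lysosomal genes, CTSA, CTSD, CTSH, GAA, GUSB and MCOLN1. They had higher RNA for NPC1, ATG5 and GABARAPL1. Of all features 13.8% were called in this comparison, 6.53% higher and 7.28% lower, against 9 of 31 here, 3 higher and 6 lower. The 21 lysosomal genes had a median of -0.39 and the 10 tested autophagy genes one of 0.18, compared with 0.03 over all features. All 6 lower calls were lysosomal hydrolases or channels. No autophagy gene was called lower, though ATG16L1 lay just outside the threshold and was called under some other settings. The control siRNA doxorubicin arrays also enter the first comparison above, so the values of a gene in both are not independent.

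GUSB, beta-glucuronidase, had the lowest value. It gave 1144 and 1050.2 with control siRNA and 278 and 188 with TAF3 siRNA, on arrays that all received doxorubicin. The pairs were far apart and the change was -2.18 ± 0.39, or 0.220 times the control level (limma adjusted p = 0.0125). MCOLN1, the lysosomal calcium-releasing channel TRPML1, gave 1448 and 951 with control siRNA and 349 and 249.5 with TAF3 siRNA. Its change was -1.91 ± 0.42 (limma adjusted p = 0.0219), with no overlap. CTSD, the aspartic protease cathepsin D, gave 1242 and 1166 against 401 and 365. Both pairs were tight and the change was -1.58 ± 0.22 (limma adjusted p = 0.00737), the smallest adjusted p of the module here.

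GAA gave 1055 and 931 with control siRNA and 474 and 215 with TAF3 siRNA, a change of -1.56 ± 0.41 (limma adjusted p = 0.0403). Its second probe gave -1.53 ± 0.42. CTSA, the carboxypeptidase that also stabilises the lysosomal enzymes GLB1 and NEU1, gave 1056 and 1055 against 548 and 424. Its change was -1.06 ± 0.19 (limma adjusted p = 0.0132), and neither pair came near the other. CTSH, an aminopeptidase, gave 1307 and 1119 against 797 and 472, with the TAF3 siRNA arrays spread widely (-0.91 ± 0.22, limma adjusted p = 0.0307). Its second probe, with signals of 72.7 to 140.3, gave -0.25 ± 0.24 (limma adjusted p over probes = 0.533), and with the mean of both probes CTSH was not called (-0.58 ± 0.20, limma adjusted p = 0.0879).

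For the genes with higher RNA, NPC1, which exports cholesterol from the lysosome, gave 1186 and 1232 with control siRNA and 1810.2 and 2362 with TAF3 siRNA. The change was 0.88 ± 0.24 (limma adjusted p = 0.0414). ATG5, part of the conjugation machinery, gave 249 and 281 against 396 and 521 (0.88 ± 0.24, limma adjusted p = 0.0452). GABARAPL1 gave 753 and 698 against 1198 and 1097 (0.75 ± 0.19, limma adjusted p = 0.035). In each of the 3 genes both TAF3 siRNA arrays lay above both control arrays. ATG16L1, which acts with ATG5, lay just outside the threshold on the other side, at 1138 and 1268 against 752 and 515 (-0.87 ± 0.25, limma adjusted p = 0.0504). Its second probe gave -0.80 ± 0.26 (limma adjusted p over probes = 0.0766). ATG16L1 was called lower with probes detected on all arrays, with array weights and with only the groups compared (limma adjusted p = 0.0474, 0.0236 and 0.0191).

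Of the 7 genes that doxorubicin raised with one siRNA or both, GAA and GABARAPL1 were called here, in opposite directions. The other 5 were not called, at -0.07 ± 0.15 for PSAP, 0.05 ± 0.21 for CTSB, -0.19 ± 0.25 for ULK1, 0.25 ± 0.20 for MAP1LC3B and 0.34 ± 0.19 for SMPD1. Other lysosomal genes below 0 but not called were CTSL (-0.73 ± 0.23), TPP1 (-0.66 ± 0.30), NEU1 (-0.66 ± 0.30) and NPC2 (-0.57 ± 0.18). LAMP1, GLA, GLB1 and CTSZ lay between -0.09 and 0.20. CTSA, CTSD, GUSB, MCOLN1 and GABARAPL1 were called under all 10 other settings of the analysis, and CTSH and NPC1 under 9, GAA and ATG5 under 7. All calls of the module were lost here without either control siRNA doxorubicin array, and all but that of CTSD without TAF3 siRNA doxorubicin replicate 4. In these fits, which leave 1 array in a group, most calls over all features were lost too. The calls of GAA, NPC1 and GABARAPL1 were also lost without either untreated control siRNA array. Those arrays are not part of this comparison but enter the normalisation and the fit's error, and calls over all features fell less there. Over all 8 fits without 1 array the change of GUSB ran from -2.40 to -1.97 and that of CTSD from -1.64 to -1.53.

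**Figure D3:**
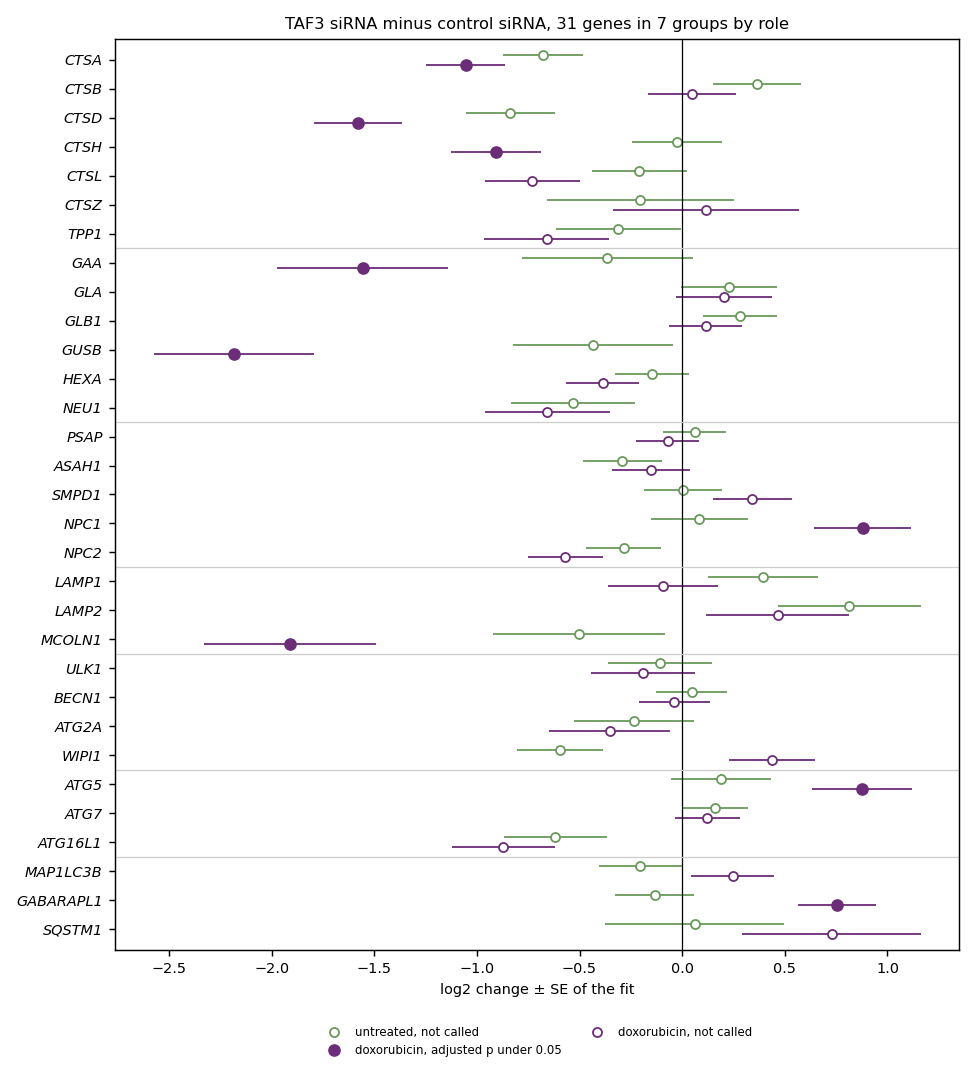
Log2 difference between TAF3 siRNA and control siRNA (horizontal axis, ± SE of the fit) of the 31 tested genes (vertical axis, ordered by role) in untreated cells and under doxorubicin. No point is filled for untreated cells, while 9 are filled under doxorubicin, from GUSB at -2.18 to NPC1 at 0.88.

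Promoters were then set beside these calls. Of the 6 genes with CACGTG in the window, 4 (CTSA, CTSD, GAA and MCOLN1) were called lower with TAF3 siRNA under doxorubicin and 2 (LAMP1 and NEU1) were not called. Of 20 tested genes whose windows lacked it, 2 (CTSH and GUSB) were called lower and 3 higher. Among all tested genes with a window, 7.62% of the 1234 with CACGTG and 8.15% of the 8704 without it were called lower. Over all genes the palindrome therefore went with no larger share of lower calls. GUSB, with the lowest value of the module, has no CACGTG between 250 bases before and 50 bases after its start, which says nothing of other positions.

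Whether doxorubicin acted differently in the 2 siRNA groups was tested as an interaction, the response with TAF3 siRNA minus that with control siRNA. The fit called 0 of 31 genes, compared with 0.0367% of all features, 0.0122% higher and 0.0245% lower. An unadjusted p under 0.05 was found for 7 genes of the module and 2424 features. Negative values belonged to GUSB (-1.75 ± 0.55, limma adjusted p = 0.2), MCOLN1 (-1.41 ± 0.59), CTSH (-0.88 ± 0.31) and CTSD (-0.74 ± 0.30). Positive ones belonged to WIPI1 (1.03 ± 0.30, limma adjusted p = 0.169), a lipid-binding protein of the forming autophagosome, GABARAPL1 (0.89 ± 0.27) and NPC1 (0.80 ± 0.33). All other settings with an interaction also gave 0 genes. Without TAF3 siRNA untreated replicate 1, GUSB (-2.47 ± 0.30), MCOLN1 (-2.13 ± 0.38) and SQSTM1 (1.51 ± 0.28) were called, and calls over all features rose as well. A response called with one siRNA and not with the other was therefore not shown to differ.

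The module's remaining genes can be given briefly. GLA, GLB1, CTSZ, BECN1 and ATG7 were called nowhere, and on the probes used none of their pairwise changes lay outside -0.20 to 0.43. For CTSZ the standard error was 0.45, too wide to show that its RNA stayed level. GLB1, beta-galactosidase, ran from 1289 to 2155 over the 8 arrays. Its second bright probe changed by 0.59 ± 0.17 with doxorubicin in TAF3 siRNA cells (limma adjusted p over probes = 0.0783). BECN1, a subunit of the lipid kinase complex of autophagy, ran from 649.6 to 1046, and ATG7, the activating enzyme of conjugation, from 584 to 886. HEXA, the alpha subunit of beta-hexosaminidase, was above background on 3 of 8 arrays with signals of 65.9 to 94.2, too near background to show a difference. TFEB itself ran from 63.6 to 87.4, so its transcript cannot be compared. NPC2, a small cholesterol carrier, was bright on every array, between 8384 and 15086.

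LAMP2 showed how much a result can depend on the probe. This gene of a major lysosomal membrane glycoprotein has 6 probes, all above background on every array, which the annotation assigns to several transcript records. The brightest, used above, read 758 and 1813 untreated and 1143 and 1098 with doxorubicin in control siRNA cells (-0.16 ± 0.34). A pair of probes assigned to another record rose instead. The first went from 691 and 823 to 2071 and 1477 (1.13 ± 0.21, limma adjusted p over probes = 0.00897). The second went from 485 and 580.2 to 1565 and 1168 (1.26 ± 0.21, adjusted p over probes = 0.0056). For both of these, the TAF3 siRNA arrays with doxorubicin were also lower than the control ones, with differences of -0.80 ± 0.21 and -0.82 ± 0.21 (limma adjusted p over probes = 0.0388 and 0.0347). A further probe assigned to the same record as the brightest also rose with doxorubicin (0.91 ± 0.24, adjusted p over probes = 0.0322). The probes therefore do not divide by record alone. These probe values were singled out after they were seen.

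**Figure D4:**
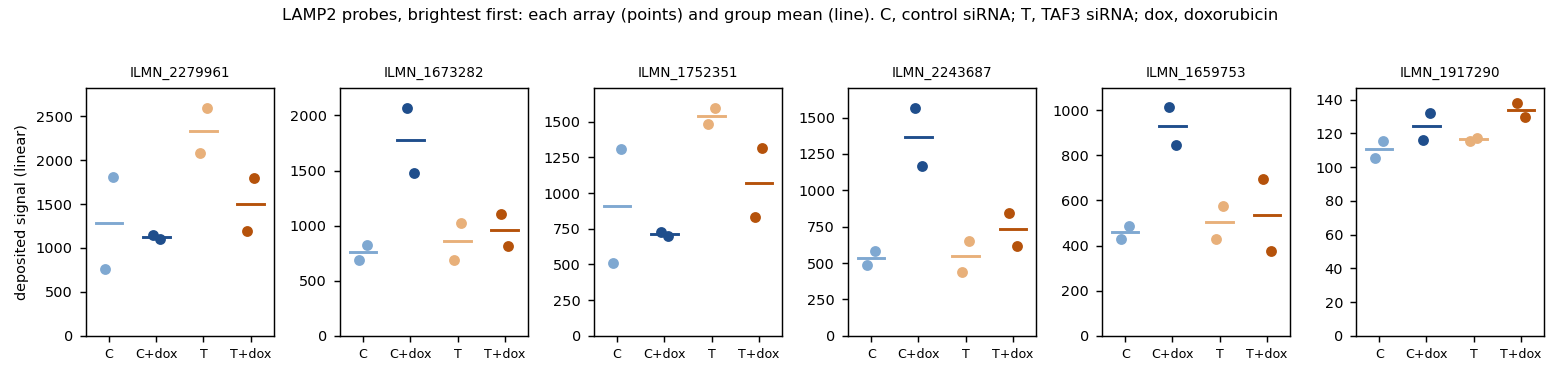
Deposited linear signal (vertical axis, from 0) of the 6 LAMP2 probes on each array (points) with the group mean (line), brightest probe first, for control siRNA (C) and TAF3 siRNA (T) without and with doxorubicin (dox). ILMN_1673282 and ILMN_2243687 are highest on the control siRNA doxorubicin arrays, whereas ILMN_2279961 and ILMN_1752351 are highest on untreated TAF3 siRNA arrays.

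Probes of other genes agreed in some cases and not in others. Both bright probes of ULK1 rose with doxorubicin in control siRNA cells (1.25 ± 0.25 and 1.17 ± 0.25), as did both of PSAP (0.93 ± 0.15 and 0.87 ± 0.15). CTSL, a cysteine protease, had a second bright probe that was lower with TAF3 siRNA under doxorubicin (-0.98 ± 0.22, limma adjusted p over probes = 0.0227), where the one used was not called (-0.73 ± 0.23). For SMPD1 the choice of probe decided which doxorubicin comparison was called. The second probe rose with control siRNA (1.03 ± 0.24, limma adjusted p over probes = 0.0209) and was not called with TAF3 siRNA (0.65 ± 0.24, adjusted p over probes = 0.164). With the mean of both probes SMPD1 was likewise called with control siRNA (0.82 ± 0.21, limma adjusted p = 0.0265) and not with TAF3 siRNA (0.80 ± 0.21, limma adjusted p = 0.0624). Under doxorubicin its probes differed in sign between the siRNAs (0.34 ± 0.19 and -0.31 ± 0.24), and neither was called.

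Other genes of the same pathways were counted from lists chosen with earlier results of these data known. Their counts stand against the shares of all features called given above. With control siRNA, where doxorubicin called 9.08% of features higher and 8% lower, it raised 6 of 30 other lysosomal hydrolases and lowered 1, with a median of 0.28. Among them were the fucosidase FUCA1 (2.07 ± 0.36), the iduronidase IDUA (1.87 ± 0.38), the cysteine protease CTSV (1.75 ± 0.26) and the phospholipase PLA2G15 (1.63 ± 0.22). With TAF3 siRNA, where 4.65% of features were called, limma called 0 of the 30 (7 with an unadjusted p under 0.05). Under doxorubicin 7 were lower in the TAF3 siRNA cells and 2 higher, with a median of -0.30, compared with 7.28% and 6.53% of all features. Those with the largest differences were CTSV (-2.09 ± 0.26), the arylsulfatase ARSA (-1.63 ± 0.24), IDUA (-1.36 ± 0.38) and the mannosidase MAN2B1 (-1.19 ± 0.25).

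Of 22 other lysosomal membrane proteins, doxorubicin with control siRNA raised 6 and lowered 1. LAMP3, an inducible relative of LAMP1 and LAMP2, read 176 and 267 untreated and 3790.0 and 4052 treated (4.10 ± 0.44). With TAF3 siRNA it read 239 and 249.9 untreated and 806 and 237 treated. One treated TAF3 siRNA array thus lay no higher than the untreated ones. Also raised with control siRNA were the peptide transporter ABCB9 (2.27 ± 0.39), the ion channel TMEM175 (1.42 ± 0.29) and OSTM1 (0.82 ± 0.21). Doxorubicin with TAF3 siRNA called only CTNS, the cystine exporter, at -0.65 ± 0.15. Under doxorubicin 4 genes were lower with TAF3 siRNA, LAMP3 (-3.09 ± 0.44), SIDT2 (-2.04 ± 0.48), ABCB9 (-1.93 ± 0.39) and TMEM175 (-1.03 ± 0.29), and 1 was higher.

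The V-ATPase is the pump that acidifies the lysosome. Of its 20 tested subunits, doxorubicin with control siRNA raised 5, among them ATP6V1D (1.23 ± 0.17) and ATP6V0D1 (1.15 ± 0.17), and lowered 1. With TAF3 siRNA ATP6V0D1 alone was called, as higher with doxorubicin (0.79 ± 0.17). Under doxorubicin 3 subunits, ATP6V0E2 (-1.35 ± 0.32), TCIRG1 (-1.22 ± 0.27) and ATP6V1D (-0.82 ± 0.17), were lower with TAF3 siRNA and ATP6V1B2 was higher (0.65 ± 0.17).

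Of 46 other autophagy genes, doxorubicin with control siRNA raised 7 and lowered 5, and with TAF3 siRNA 6 were called higher and 0 lower. Of all features 9.08% and 8% were called higher and lower in the first comparison, and 2.07% and 2.58% in the second. The selective autophagy receptor OPTN rose most in both (1.80 ± 0.17 and 1.57 ± 0.17). ZFYVE1 (1.31 ± 0.19 and 1.21 ± 0.19) and WDR45 (1.20 ± 0.18 and 1.27 ± 0.18), which bind the lipid that marks forming autophagosomes, rose in both. The mitophagy receptor BNIP3L was lowered with control siRNA (-0.99 ± 0.17). Under doxorubicin 4 were higher with TAF3 siRNA, BNIP3L (0.96 ± 0.17), RB1CC1 (0.88 ± 0.24), WDR45B and ATG4C, and 2 lower, OPTN (-0.99 ± 0.17) and ATG16L2 (-0.85 ± 0.22). Of all features 6.53% were higher and 7.28% lower there. The median of the 46 in that comparison was 0.19, while those of the other hydrolases, membrane proteins and pump subunits lay between -0.30 and -0.24. These lists were not tested against each other.

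**Figure D5:**
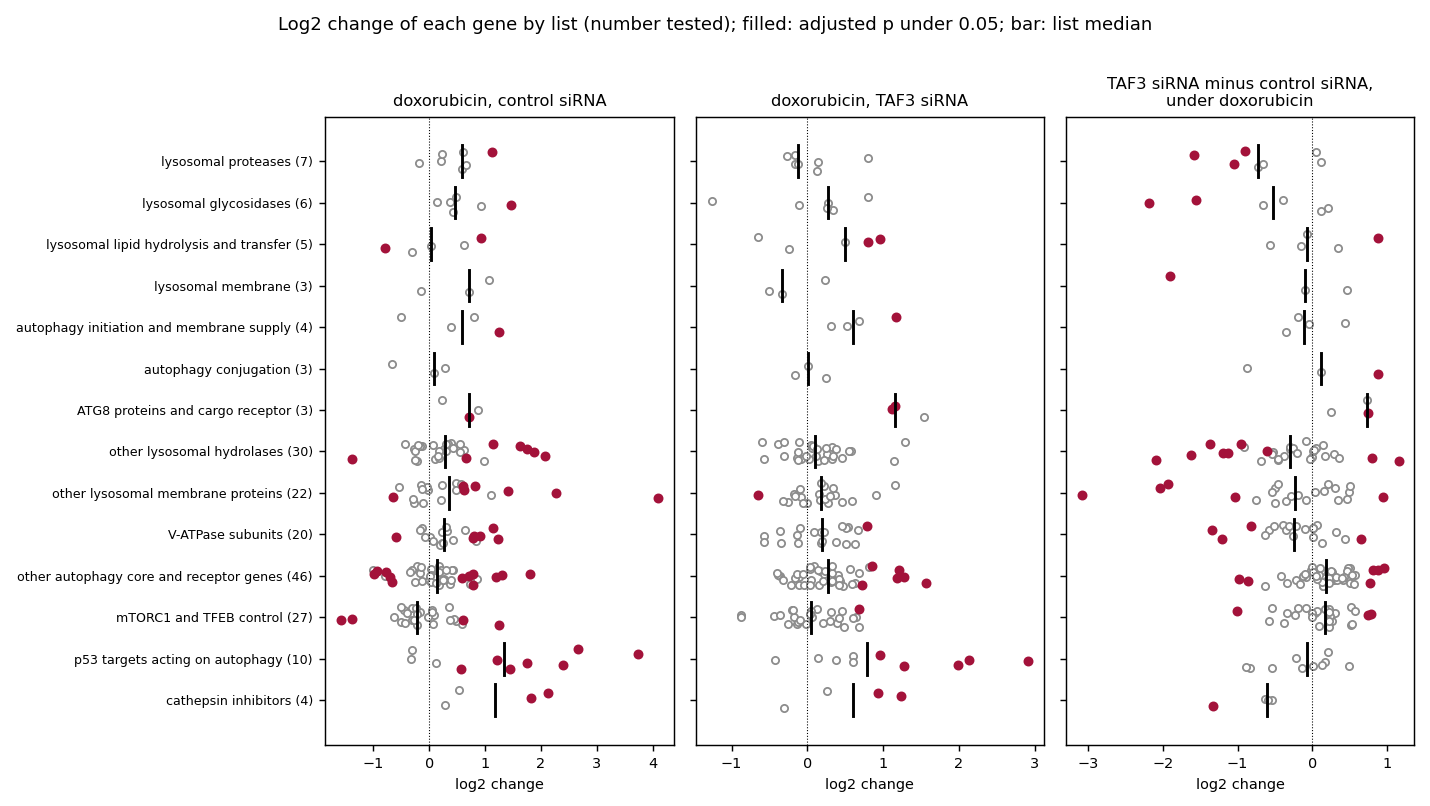
Log2 change (horizontal axis) of each tested gene, by list (vertical axis, with the number of genes tested), for doxorubicin with control siRNA, doxorubicin with TAF3 siRNA, and TAF3 siRNA minus control siRNA under doxorubicin. Filled points are called genes and bars are list medians, and among the 30 other lysosomal hydrolases 6 filled points are higher in the first panel and 7 lower in the last.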

How the data were processed

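RNA of HCT116 cells was hybridised to 8 bead arrays of 1 colour, and groups were read from the sample titles. The deposited intensity values are signals on a linear scale with an equal median on every array (73.9). The submitters' processing notes name BeadStudio, with its version and further steps not stated in the labels. A deposited table also holds detection p-values, stored as 1 minus p in columns that name no sample. They were used only to count the arrays on which a probe was detected (p under 0.05), and the 8 signal columns of that table were not used. Signals were corrected with normexp (offset 50), quantile normalised and put on the log2 scale. Probes detected on at least 2 arrays were kept, 20628 of 48803. Each gene named in GEO's platform annotation was represented by its brightest kept probe, and probes without a single symbol stood for themselves. An array's background threshold, read from the signals of probes detected on none or on all arrays, was 81.4 to 87.4.

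Group means were fitted with lmFit and eBayes of limma 3.58.1, run in R 4.3.3 (4 residual and 4.98 prior degrees of freedom), and p-values were Benjamini-Hochberg adjusted over 16348 features within each of 5 comparisons. The number of arrays limits the precision. The fit was tested on simulated data. Of 100 features changed by 1 on the log2 scale it called 45 to 60 in the pairwise comparisons and 11 for the interaction. Of 100 changed by 2 it called 84 to 92 and 74. A real change of this module can therefore go uncalled, above all as an interaction. Members and lists were chosen with earlier results of these data known. By rule, members called in any comparison are described on every array, other members by counts and ranges, and up to 4 called genes of each further list are named per comparison. LAMP2 probes and members close to the threshold were added after their values were seen. Promoter windows and gene names came from RefSeq tables of GRCh38.p14. Alternatives covered the background correction, normalisation, filter, choice of probe, variance model, array weights, the arrays fitted, the replicate number as a block, and leaving out each array.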

Additional observations from a re-analysis of the deposited data

How the results depend on the processing

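With 2 arrays per group the number of genes called is the least stable quantity, while no call changed direction under any of 10 alternatives or 8 fits without 1 array. For doxorubicin with control siRNA 6 genes of the module were called, compared with 14 with array weights, 10 with the replicate block and 15 when only the groups compared were fitted. The shares of all features called in these fits were 17.1%, 25.2%, 17.2% and 25.7%, in that order. For doxorubicin with TAF3 siRNA 5 were called, compared with 3 on the log2 deposited signals, 3 with median centring, 2 with array weights and 0 when only the groups compared were fitted, a fit that called 0 of all features. The shares of all features in the first 4 of these were 4.65%, 4.1%, 4.31% and 2.45%. Fits without 1 array leave 1 array in a group, and the share of all features called varied among them in every comparison. The ranges of module counts that follow therefore do not set the module apart. Over fits without 1 array the counts ran from 0 to 10 for doxorubicin with control siRNA, 0 to 8 with TAF3 siRNA, 0 to 2 for TAF3 siRNA untreated, 0 to 12 under doxorubicin and 0 to 3 for the interaction.

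Nothing in the labels says that replicate numbers pair arrays, and deviations of same-numbered arrays correlated at -0.0256 untreated and 0.212 with doxorubicin, which does not settle it. Untreated and doxorubicin arrays share no replicate number, so the block acts only within each treatment. It cannot adjust a comparison of doxorubicin with untreated arrays for a difference between their numbers. With the replicate block, GUSB fell with doxorubicin in TAF3 siRNA cells (-1.26 ± 0.27, limma adjusted p = 0.0496), making 6 calls there, and TAF3 siRNA under doxorubicin kept 9, untreated 0 and the interaction 0. The shares of all features called with the block were 4.52%, 14.4%, 0% and 0.0122%, in the same order. Normalisation moved the balance of all calls. Of calls with doxorubicin 53.2% were higher with control siRNA and 44.6% with TAF3 siRNA, against 64.2% and 30.3% on the log2 deposited signals and 63.2% and 30.1% with median centring. The all-feature interaction median moved from 0.02 to -0.10 on the log2 deposited signals. Signals near background limit HEXA, TFEB, SMPD1 and TAF3.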

Other observations

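Genes around the module were also measured. Of 10 p53 targets that act on autophagy, doxorubicin raised 7 with control siRNA and 5 with TAF3 siRNA (9.08% and 2.07% of all features). Between the siRNAs under doxorubicin 0 of the 10 were called (limma, 2 with an unadjusted p under 0.05), compared with 13.8% of all features. TP53INP1, which binds ATG8 proteins, rose by 3.74 ± 0.28 and 2.91 ± 0.28 with the 2 siRNAs, SESN1, an inhibitor of mTORC1 signalling, by 2.66 ± 0.40 and 2.13 ± 0.40, and the lysosomal membrane protein DRAM1 by 1.45 ± 0.24 and 1.27 ± 0.24. DRAM1 read 472 and 567 untreated and 1274 and 1788 treated with control siRNA, and 818 and 623 untreated and 1748 and 1432 treated with TAF3 siRNA. Treated arrays lay above untreated ones in both cases.

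Of 4 tested cathepsin inhibitors, doxorubicin raised CST3, cystatin C, by 2.13 ± 0.29 with control siRNA and 1.23 ± 0.29 with TAF3 siRNA, and CST6, cystatin M, by 1.82 ± 0.19 and 0.94 ± 0.19. Between the doxorubicin groups, CST6 was lower in the TAF3 siRNA cells (-1.33 ± 0.19, limma adjusted p = 0.00776). Of 27 genes that control mTORC1 and TFEB, doxorubicin with control siRNA raised 2, RRAGA (1.25 ± 0.23) and STK11 (0.60 ± 0.16), and lowered 2, RRAGD (-1.58 ± 0.20) and MLST8 (-1.38 ± 0.30). RRAGA and RRAGD are Rag GTPases that recruit mTORC1 to the lysosome. In TAF3 siRNA cells STK11 alone was called, as higher with doxorubicin (0.68 ± 0.16). Under doxorubicin TSC2 was lower with TAF3 siRNA (limma adjusted p = 0.0332), and FNIP1 (0.78 ± 0.16) and ZKSCAN3 (0.75 ± 0.19) were higher. Doxorubicin called 9.08% of all features higher and 8% lower with control siRNA, and 4.65% with TAF3 siRNA. Between the doxorubicin groups 13.8% were called. The counts of the 27 genes lay near these shares. GUSB is widely used as a reference transcript for normalising other RNA measurements, and on these arrays it was the gene of the module with the largest absolute change in any comparison.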
